A study of Mus musculus with 6 samples.

Results

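The genes described here encode the feedback inhibitors of ERK signalling Dusp4, Dusp5, Dusp6, Spry1, Spry2, Spry4 and Spred1 and the transcription factors Etv1, Etv4 and Etv5. They were listed by name, with no threshold on a measured value, but with earlier results of these data known. In the count table of 55416 gene rows, 1 row matched each of the 10 symbols. All 10 were among the 17679 genes with enough counts to be tested. ERK is the last kinase of the RAS-RAF-MEK-ERK cascade, which carries signals from receptor tyrosine kinases to the nucleus. Active ERK is known to raise the transcription of its own brakes, so that levels of these transcripts are widely used as a readout of the pathway. The DUSP proteins remove phosphate from MAP kinases, the Sprouty proteins (Spry) restrain signalling between receptors and RAS, and SPRED1 brings neurofibromin, which switches RAS off, to the membrane. The ETV proteins form the PEA3 group of ETS transcription factors, and their genes are held down by the repressor Capicua (Cic) until ERK removes it.

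RNA was sequenced from MB21, a line of mouse medulloblastoma cells with mutant ptch, the receptor gene that holds hedgehog signalling in check. Cells were grown without attachment in DMEM/F12 with B27 supplement. In 3 libraries (DS38) the cells had received 10 uM of DS-1-38, a derivative of benzarone, and in 3 others (DMSO) the vehicle, each for 1 day. The labels give 1 day throughout, whereas the series' design text names another duration. All 6 libraries come from this 1 line, and the labels do not say whether replicates were separate cultures, and the p-values therefore speak of library-to-library spread, which may be technical. In RNA from whole cultures, fewer cells of a type and less RNA per cell cannot be told apart.

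Libraries held 60434089 to 84044428 counts in DS38 and 38840296 to 50014681 in DMSO, so every DS38 library was deeper. Markers of cerebellar granule cell progenitors were present (CPM, counts scaled to library size by TMM, as mean ± SD, n = 3 each). Zic1 was at 623 ± 15.5 CPM in DS38 and 666 ± 21.7 CPM in DMSO. Atoh1 was at 411 ± 5.49 CPM in DS38 and 326.7 ± 8.37 CPM in DMSO. The marker list of 10 genes covers progenitors and hedgehog-type medulloblastoma together and includes genes of the hedgehog pathway. Of the 10, 2 rose, Atoh1 among them, and 6 fell, Zic1 among them, beside 12.9% and 11.7% of all tested genes. Zic1 did not pass when scaled by library size alone (edgeR adjusted p = 0.1103). It also missed without DMSO replicate 1 (0.07585) or 2 (0.06807), or DS38 replicate 1 (0.1494) or 2 (0.08812). The 10 genes summed to 2240 to 2275 CPM in DS38 and 2276 to 2352 CPM in DMSO. Of the 5 markers of microglia, none had enough counts to be tested. The summed level of oligodendrocyte markers was 4.21 to 4.88 CPM in DS38 and 4.47 to 4.79 CPM in DMSO, and that of endothelial markers 0.998 to 1.178 CPM in DS38 and 0.931 to 1.27 CPM in DMSO, with Kdr and Cldn5 at 0 counts. Fibroblast and pericyte markers summed to 1.76 to 2.09 CPM in DS38 and 0.998 to 1.27 CPM in DMSO, and 1 of the 2 tested, Col1a1, rose, at 0.822 ± 0.258 CPM in DS38 and 0.373 ± 0.168 CPM in DMSO; Rgs5 had 0 counts. With 233 counts in all, Col1a1 did not pass after thinning the libraries to the smallest total (edgeR adjusted p = 0.0669) or without DMSO replicate 2 (0.08868) or DS38 replicate 1 (0.09796). The astrocyte list summed to 142.9 to 148.6 CPM in DS38 and 144.1 to 152.1 CPM in DMSO, nearly all of it Slc1a3, a glutamate transporter that progenitor cells also make; Aqp4 and Aldh1l1 had 3 and 8 counts in all libraries together. Of the astrocyte list's 3 tested genes, Gfap rose, at 5.40 ± 0.333 CPM in DS38 and 4.33 ± 0.241 CPM in DMSO; its call was lost with DESeq2 (adjusted p = 0.05294) and without DMSO replicate 1 (edgeR adjusted p = 0.07361) or DS38 replicate 2 (0.08541). The part of such cells in the results below was not tested.

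After 1 day of DS38, Etv1 fell by 21.5%, Dusp4 fell by 18.7%, Dusp6 fell by 16.3%, Etv5 fell by 12.3% and Spred1 fell by 8.88%, whereas Dusp5 rose by 15.8%. Spry1, Spry2, Spry4 and Etv4 did not pass the test. Thus 5 of the 10 genes were lower and 1 was higher (edgeR quasi-likelihood test, Benjamini-Hochberg adjusted p under 0.05 over all genes tested). Of all tested genes, 24.5% were called by the same rule, 11.7% as lower and 12.9% as higher. Genes with more counts are called more often, so the share was also taken over the 10202 tested genes whose mean level lay within the range of these 10, from 3.05 to 198.4 CPM. There 13.3% were lower and 18.3% were higher. Since earlier results were known when the 10 genes were listed, these shares describe the list and are not a test of it. The median log2 fold change, DS38 over DMSO, was -0.15 for the 10 genes and 0.004 for all genes tested. In each of the 6 called genes the DS38 and DMSO libraries did not overlap, and in the 4 others they overlapped. Of all tested genes, 38.6% had groups that did not overlap, 17.9% with DS38 lower and 20.7% with DS38 higher.

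**Figure D1:**
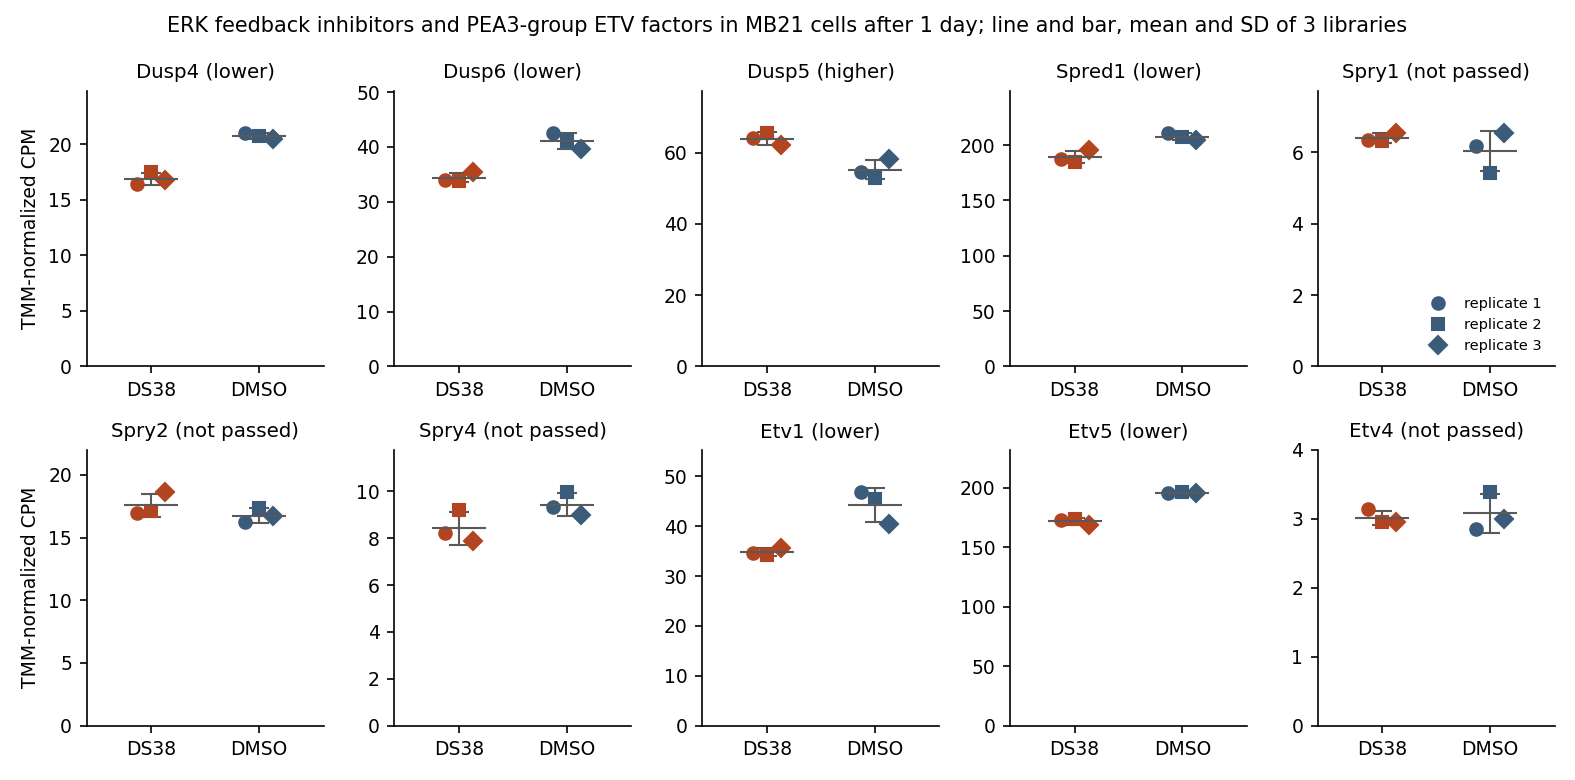
Level of each of the 10 genes in every library, in TMM-normalized CPM from 0 upward, with DS38 left of DMSO in each panel. Points are libraries, marked by replicate number, and the line and bar are the mean and SD of 3 libraries. Dusp4, Dusp6, Spred1, Etv1 and Etv5 lay lower in every DS38 library than in any DMSO library, and Dusp5 higher.

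Among the phosphatases, Dusp6 encodes a cytoplasmic enzyme with a strong preference for ERK. Its level was 34.0, 33.8 and 35.4 CPM in DS38 replicates 1 to 3, against 42.6, 41.1 and 39.6 CPM in DMSO replicates 1 to 3. The highest DS38 library was thus below the lowest DMSO library, and the log2 fold change was -0.26 ± 0.041 (SE; edgeR adjusted p = 8.393e-05). Dusp4 encodes a nuclear phosphatase of ERK and, to a lesser extent, of the stress-activated kinases. It was at 16.4, 17.5 and 16.8 CPM in the DS38 libraries and at 21.1, 20.7 and 20.5 CPM in the DMSO libraries. The DMSO libraries were within 1 CPM of each other, and the gap to DS38 was wider than the spread in either group (log2 fold change -0.30 ± 0.051; edgeR adjusted p = 0.0001803).

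Dusp5, whose product is a nuclear phosphatase that acts on ERK alone among the MAP kinases, went the other way. It was at 64.0, 65.6 and 62.0 CPM in DS38, against 54.5, 52.9 and 58.3 CPM in DMSO. DMSO replicate 3 lay nearest to the DS38 libraries but still below all of them (log2 fold change 0.21 ± 0.038; edgeR adjusted p = 0.0003022). An annotated antisense transcript covers 22.1% of the exon bases of Dusp5 and had 36 counts in all libraries together, beside 21877 for Dusp5. Whether counting used strand is not given in the sources used here.

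The proportions within this family do not depend on how libraries were scaled. On a per-length scale (TPM, deposited counts divided by gene length and scaled to 1 total for every library), Dusp5 made up 60.6%, 60.7% and 59.0% of the summed TPM of Dusp4, Dusp5 and Dusp6 in the DS38 libraries and 50.9%, 50.9% and 53.9% in the DMSO libraries. Dusp6 held 25.6 ± 0.960% in DS38 and 30.5 ± 1.34% in DMSO, and Dusp4 held 14.4 ± 0.313% in DS38 and 17.6 ± 0.452% in DMSO (SD, n = 3 each). The Dusp5 share was higher in each DS38 library than in any DMSO library. The sum itself was 174.6 ± 2.84 TPM in DS38 and 171.6 ± 3.41 TPM in DMSO, and its ranges overlapped. Unlike the proportions, the sum depends on scaling, and TPM as used here carries no TMM factor. On this scale these 3 phosphatase transcripts together showed no difference beyond the spread while their proportions shifted. The sum was not tested.

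The windows around the annotated starts of the phosphatase genes Dusp6 and Dusp5 are shown because they hold motif matches. Each runs from 250 bases before the RefSeq start to 30 bases from it on, on the strand of the gene (RefSeq, GRCm38.p6, an older build than the GRCm39 named in the submitters' notes). Capitals mark motif matches. Spry2 is added as the other gene with a match among those searched.
Dusp6, chr10:99262981-99263260, plus strand: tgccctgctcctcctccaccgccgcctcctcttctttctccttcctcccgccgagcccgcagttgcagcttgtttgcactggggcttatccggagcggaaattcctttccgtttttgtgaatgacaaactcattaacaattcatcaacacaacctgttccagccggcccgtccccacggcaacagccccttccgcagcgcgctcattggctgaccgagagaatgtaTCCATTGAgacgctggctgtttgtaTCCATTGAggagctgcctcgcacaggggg
Dusp5, chr19:53528895-53529174, plus strand: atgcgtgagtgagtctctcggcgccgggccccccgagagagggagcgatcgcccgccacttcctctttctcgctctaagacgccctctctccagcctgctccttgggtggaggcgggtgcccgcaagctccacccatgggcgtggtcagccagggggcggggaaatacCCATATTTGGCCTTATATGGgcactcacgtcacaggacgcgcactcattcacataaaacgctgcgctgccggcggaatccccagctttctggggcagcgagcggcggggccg
Spry2, chr14:105896790-105897069, minus strand: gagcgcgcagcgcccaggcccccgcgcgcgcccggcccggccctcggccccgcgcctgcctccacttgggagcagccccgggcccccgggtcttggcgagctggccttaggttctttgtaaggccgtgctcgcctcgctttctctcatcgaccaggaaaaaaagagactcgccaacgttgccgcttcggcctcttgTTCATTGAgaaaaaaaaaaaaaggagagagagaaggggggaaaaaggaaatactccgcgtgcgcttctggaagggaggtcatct

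Windows of 7 of the 10 genes were searched, 9 windows in all, since Etv1 and Etv5 have 2 each. Dusp4, Spry4 and Etv4 were not searched. The motif of Capicua was searched as TGAATGAA, TGAATGGA, TCAATGAA and TCAATGGA on both strands. Dusp6 held 2 matches, both TCAATGGA on the opposite strand and so printed as TCCATTGA; 1 began 24 bases before the start and the other 1 base after it. Spry2 held 1, TCAATGAA on the opposite strand, printed as TTCATTGA, which began 54 bases before the start. Such a match was present in 3.58% of the 32541 windows of this length. The Dusp5 window held 2 CArG boxes, the motif bound by serum response factor, beginning 82 and 72 bases before the start, and 1.57% of windows held at least 1. The CArG box was added after the Dusp5 sequence had been seen. The windows of Spry1, Spred1, Etv1 and Etv5 had no match to these motifs, nor did any window to CCGGAA (ETS, in 14.3% of windows), TGANTCA (AP-1, 7.45%) or TGACGTCA (CRE, 1.75%), searched on both strands. No match was counted in more than 1 motif class. A match describes letters in this window alone and does not show binding. Whether a match bears on the change of its gene was not tested.

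Spred1 was the most abundant of the feedback inhibitors and had the smallest change among the genes that passed. It was at 187.6, 184.5 and 195.3 CPM in DS38, against 211.3, 207.1 and 204.5 CPM in DMSO. The groups were apart by less than 10 CPM between the nearest libraries (log2 fold change -0.13 ± 0.030; edgeR adjusted p = 0.001963). Its relative Spred2, from the list of other brakes described below, also fell, with 137.1 ± 0.950 CPM in DS38 and 151.4 ± 3.13 CPM in DMSO (SD, n = 3 each; edgeR adjusted p = 0.0008364), whereas Spred3 was at 16.5 CPM in DS38 and 16.25 CPM in DMSO and did not pass.

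None of the Sprouty genes passed. Spry2 was at 16.9, 17.1 and 18.6 CPM in DS38 and at 16.2, 17.4 and 16.7 CPM in DMSO, and its 95% interval for the log2 fold change ran from -0.05 to 0.19 (edgeR adjusted p = 0.4011). Spry1 was at 6.33, 6.31 and 6.55 CPM in DS38 and at 6.16, 5.43 and 6.54 CPM in DMSO (interval -0.09 to 0.27; edgeR adjusted p = 0.5051). Both groups overlapped in each case, and the intervals exclude a fall of the size seen in Dusp4 or Dusp6. Spry4 had lower values, at 8.21, 9.20 and 7.87 CPM in DS38, against 9.33, 9.98 and 8.997 CPM in DMSO. DS38 replicate 2 lay above DMSO replicate 3, and the log2 fold change of -0.17 ± 0.077 had an unadjusted p of 0.03772 and an edgeR adjusted p of 0.1133; with a correction for gene length, added after seeing the data, it passed (edgeR adjusted p = 0.04799). Over all alternatives its adjusted p ranged from 0.04799 to 0.3508. A transcript of unproven status on the opposite strand covers 24.4% of the exon bases of Spry1 and had 23 counts, beside 2265 for Spry1. Taken per length, the 3 Sprouty genes summed to 50.3 ± 1.91 TPM in DS38 and 48.2 ± 0.998 TPM in DMSO, with overlapping ranges (SD, n = 3 each).

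Of the ETV factors, Etv1, which takes part in the maturation of cerebellar granule cells, had the largest fold change of the 10 genes, except with the length or GC correction, where Dusp4 had the largest. Its level was 34.6, 34.2 and 35.6 CPM in DS38, against 46.9, 45.5 and 40.5 CPM in DMSO. DMSO replicate 3 lay nearest to DS38, and the log2 fold change was -0.35 ± 0.046 (SE; edgeR adjusted p = 9.923e-06). Without DMSO replicate 3 it was -0.41, and without DMSO replicate 1 it was -0.31. Etv5, the most abundant of the group, was at 173.1, 173.6 and 168.5 CPM in DS38 and at 195.7, 196.4 and 195.3 CPM in DMSO. The DMSO libraries differed by about 1 CPM and all lay above DS38 (log2 fold change -0.19 ± 0.028; edgeR adjusted p = 3.345e-05). Etv4 was at 3.13, 2.95 and 2.96 CPM in DS38 and at 2.85, 3.39 and 2.999 CPM in DMSO, from 116 to 252 counts per library. At that depth the 95% interval of its log2 fold change ran from -0.28 to 0.21, which covers both no change and a fall like that of Etv5 (edgeR adjusted p = 0.8845).

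**Figure D2:**
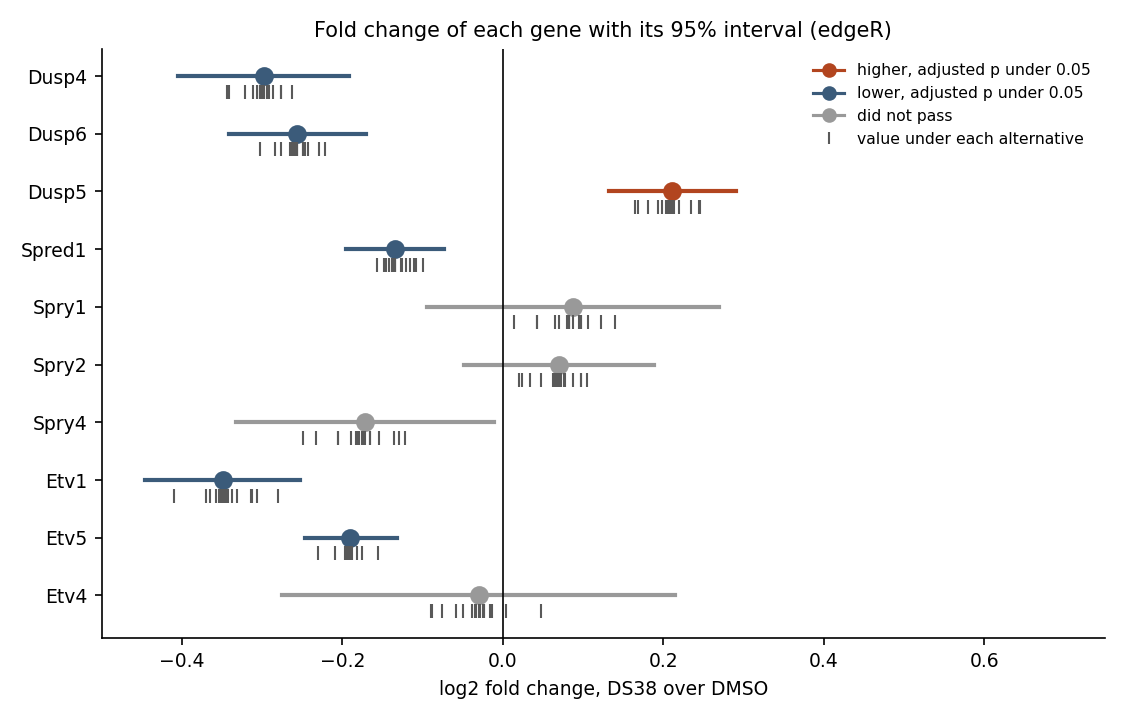
Log2 fold change of each gene, DS38 over DMSO, from edgeR. Points and bars are the estimate and its 95% interval, and the ticks under each bar are the values under the 17 alternatives. All ticks of the 6 called genes lie on the side of 0 of the estimate; those of Etv4 lie on both sides.

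Per length, the order of the 10 transcripts was the same in both groups. Etv5 led, at 170.0 ± 2.41 TPM in DS38 and 190.3 ± 0.855 TPM in DMSO, followed by Spred1 at 113.2 ± 3.62 TPM in DS38 and 122.0 ± 1.56 TPM in DMSO, and Dusp5 at 104.9 ± 2.88 TPM in DS38 and 89.1 ± 4.59 TPM in DMSO (SD, n = 3 each). Then came Dusp6, Spry2, Dusp4, Etv1, Spry1 and Spry4, and Etv4 was the lowest, at 3.94 ± 0.116 TPM in DS38 and 3.95 ± 0.368 TPM in DMSO. Neighbours in this order had ranges that did not overlap, except for Spry1 and Spry4 in DMSO, at 8.29 ± 0.781 and 7.91 ± 0.419 TPM. Etv5 was at the 94.2 percentile of mean TPM among the tested genes and Etv4 at the 30.2. Etv5 supplied 92.1 ± 0.219% of the summed TPM of Etv1, Etv4 and Etv5 in DS38 and 91.7 ± 0.464% in DMSO. That sum was lower in each DS38 library, at 185.0, 186.5 and 182.2 TPM, than in any DMSO library, at 207.0, 209.1 and 206.4 TPM.

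**Figure D3:**
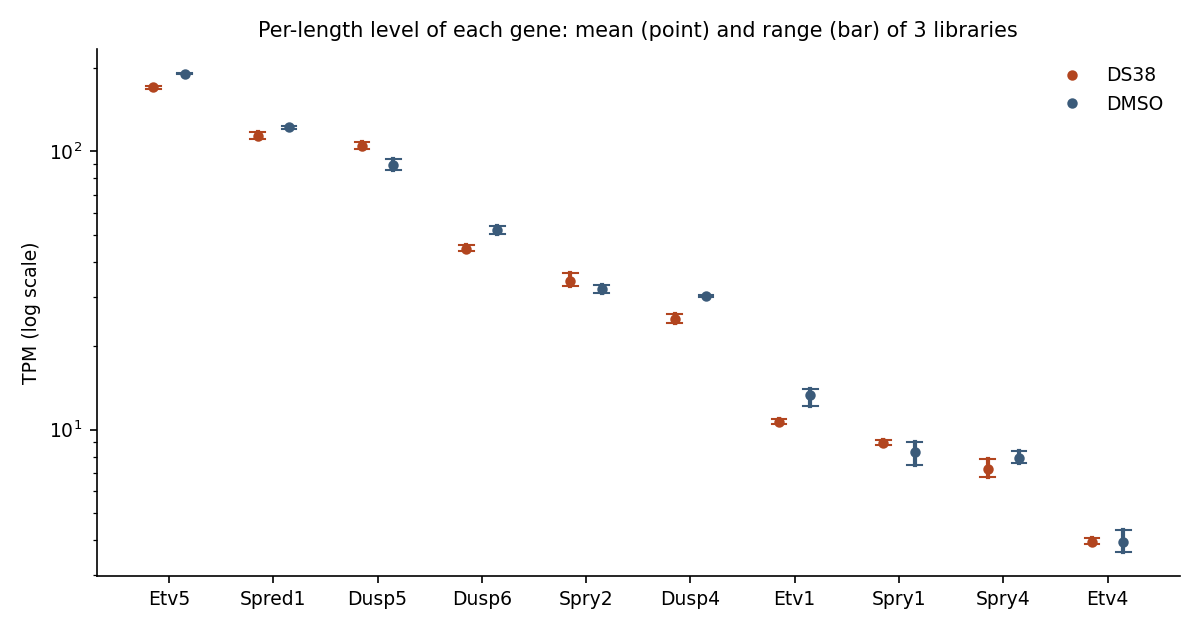
Per-length level of each gene in TPM on a log axis, DS38 left of DMSO, in order of the DMSO mean. Points are means and bars the range of 3 libraries; Etv5 lies near 170 to 190.3 TPM and Etv4 near 3.94 TPM.

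Gene length moved with the calls across the whole table. Tested genes were divided into 10 classes of equal size by length. In the longest class, from 9176 bases up, 10.7% were higher and 32.6% were lower, with a median log2 fold change of -0.05. In the classes between 2145 and 4398 bases 7.18% to 8.83% were lower. The shortest class had the lowest median, -0.113, with 1.19% higher and 5.82% lower. Etv1, at 13296 bases, was the only 1 of the 10 genes in the longest class, and the others ran from 2087 bases (Spry2) to 6784 (Spred1). With a correction for length the log2 fold change of Etv1 was -0.28 (edgeR adjusted p = 1.014e-05) and those of Dusp4, Dusp6, Etv5 and Spred1 were -0.34, -0.30, -0.23 and -0.15. Dusp5 was at 0.17 (edgeR adjusted p = 0.0007191). All 6 calls were thus also made with the correction. Calls also moved with GC content. In the lowest of 10 GC classes, which holds Etv1, 5.28% were higher and 19.3% lower, against 20.2% and 6.59% in the highest. In the class that holds Dusp4 and Dusp5, 17.6% were higher and 7.22% lower. The 6 calls were made with the GC correction too.

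**Figure D4:**
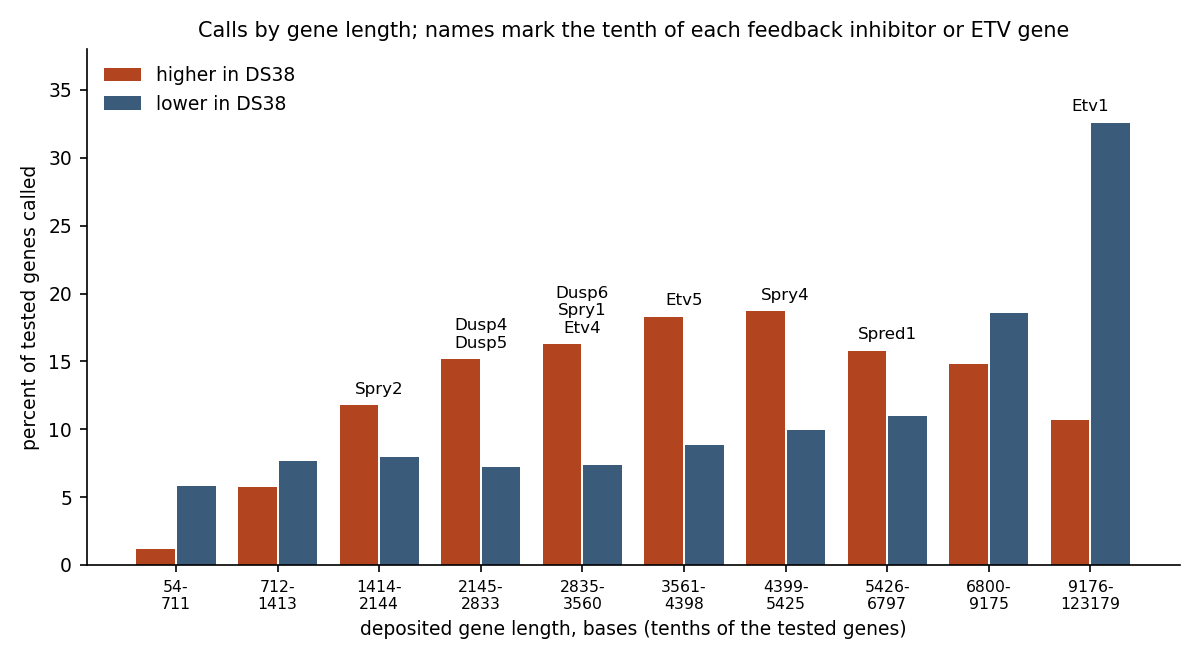
Percent of tested genes called higher (left bar) or lower (right bar) in DS38, in 10 equal classes of deposited gene length in bases. The names above the bars mark the class that holds each of the 10 genes; Etv1 stands in the longest, where 32.6% of genes were lower, and the other 9 in classes where at most 11% were.

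The genes whose 6 library values were most like those of the 2 members with the smallest p were found by the root mean square difference of log2 CPM after centring each gene on its mean. For Etv1 they were Ago3 (0.0161), Myo5a (0.017) and Nexmif (0.0188), with log2 fold changes of -0.34, -0.32 and -0.35 and lengths of 16571, 14803 and 11532 bases. Like Etv1, each had its lowest DMSO value in replicate 3, a likeness that the choice by these 6 values brings with it. For Etv5 they were Ripor2 (0.0123), Pbx3 (0.0125) and Dlgap3 (0.0131), with log2 fold changes of -0.19, -0.19 and -0.19 and lengths of 11825, 6109 and 4521 bases. The near-equal fold changes also follow from the way these genes were chosen.

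The counts of calls in the other lists of the ERK pathway are to be read against the 12.9% of all tested genes that were higher and the 11.7% that were lower. Among 19 tested receptor tyrosine kinases and ligands, of 29 listed, 3 rose and 3 fell, with a median log2 fold change of 0.06. Egfr, the receptor for EGF, fell, with 120.9, 119.4 and 125.2 CPM in DS38 against 163.4, 153.5 and 141.0 CPM in DMSO (edgeR adjusted p = 2.758e-06). Egfr is 11326 bases long, and its log2 fold change was -0.33, or -0.28 with the correction for length (edgeR adjusted p = 2.271e-07). Ntrk3, the neurotrophin-3 receptor, had the highest CPM of the list, a scale not corrected for gene length. Ntrk3 was at 255.9, 257.2 and 264.6 CPM in DS38 and 333.4, 314.5 and 291.8 CPM in DMSO (edgeR adjusted p = 9.731e-06). Its log2 fold change was -0.27, but -0.07 with the correction for length (edgeR adjusted p = 0.03567); its length is 30170 bases. Fgf1, a fibroblast growth factor, fell, at 1.99 ± 0.230 CPM in DS38 and 3.11 ± 0.141 CPM in DMSO (SD, n = 3 each). The genes that rose were the ligand genes Pdgfa (log2 fold change 0.20 ± 0.038) and Egf (0.42 ± 0.13) and the receptor gene Erbb2 (0.25 ± 0.050). The call of Egf was lost with DESeq2 (adjusted p = 0.06406) and without DMSO replicate 1 (edgeR adjusted p = 0.1332), DS38 replicate 1 (0.05313) or DS38 replicate 3 (0.06325).

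In the cascade itself, from RAS to ERK with its adaptors and the RSK kinases downstream, 5 of 24 tested genes rose and 2 fell, with a median of 0.02. Mapk3, which encodes ERK1, rose, at 74.3, 74.9 and 73.4 CPM in DS38 against 63.3, 60.9 and 69.2 CPM in DMSO (log2 fold change 0.21 ± 0.039; edgeR adjusted p = 0.0004927). The RSK gene Rps6ka2 rose by 0.36 ± 0.044 on the log2 scale and the scaffold gene Ksr1 by 0.24 ± 0.070, while Rps6ka3, another RSK gene, and Sos1, which loads RAS with GTP, fell by 0.16 ± 0.036 and 0.14 ± 0.033. The count of genes that rose was 10 when scaled by library size alone, 2 without DMSO replicate 2 and 3 without DS38 replicate 2. In the other direction, 4 fell when DMSO replicate 3 was left out. Sos1 and Rps6ka2, at 10594 and 9978 bases, are both in the longest class. With the length correction their log2 fold changes were -0.11 and 0.39. Ksr1 did not pass without DMSO replicate 2 (edgeR adjusted p = 0.07761) or DS38 replicate 1 (0.06234).

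Of 21 tested brakes on RAS and MAP kinases other than the 7 above, 1 rose and 5 fell, with a median of -0.04. Nf1, which encodes neurofibromin, was at 173.9, 170.1 and 176.2 CPM in DS38 and 225.5, 211.5 and 184.5 CPM in DMSO, a log2 fold change of -0.26 ± 0.046 (edgeR adjusted p = 0.0002462). DMSO replicate 3 lay closest to DS38, and under robust dispersion the gene missed the threshold (edgeR adjusted p = 0.05338). Cbl and Cblb, ubiquitin ligases that direct receptors to degradation, fell by 0.25 ± 0.046 and 0.17 ± 0.034. The lengths of Nf1, Cbl and Cblb, 15850, 12345 and 10475 bases, are all in the longest class, and with the length correction their log2 fold changes were -0.16, -0.19 and -0.14. Spred2 and Rasal2 were the other genes that fell. Rasa3, a RAS GTPase-activating protein, rose by 0.14 ± 0.039 but did not pass without DMSO replicate 2 (edgeR adjusted p = 0.05392) or DS38 replicate 1 (0.06317). The list had 0 genes higher without DS38 replicate 1 and 2 without DS38 replicate 2. Among other phosphatases, Dusp1, Dusp7, Dusp8, Dusp9, Dusp10 and Dusp16 did not pass. Dab2ip, which had the highest CPM of the list without correction for length, was at 226.3 ± 5.92 CPM in DS38 and 224.4 ± 5.17 CPM in DMSO.

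Of other transcripts that ERK is known to induce, 3 of 17 tested were higher and 2 were lower, 5 in all beside 24.5% of all tested genes, with a median of -0.04. The AP-1 genes Fosb and Junb rose, Fosb with 1.89, 1.45 and 2.01 CPM in DS38 against 0.983, 0.978 and 1.01 CPM in DMSO (log2 fold change 0.86 ± 0.18; edgeR adjusted p = 0.001243). Junb was at 3.08 ± 0.110 CPM in DS38 and 2.135 ± 0.289 CPM in DMSO (SD, n = 3 each), and its call was lost after thinning the libraries to the smallest total (edgeR adjusted p = 0.05885). Ier2, an immediate early gene, rose by 0.29 ± 0.086, also lost after thinning (edgeR adjusted p = 0.1249), after correction for GC content (0.06323) and without DMSO replicate 1 (0.05759) or DS38 replicate 3 (0.07548). Fosl2 fell, at 65.3, 63.8 and 63.2 CPM in DS38 against 71.6, 72.2 and 71.9 CPM in DMSO (edgeR adjusted p = 0.0006232). Fosl2 is 9680 bases long, and its log2 fold change was -0.165, or -0.143 with the length correction. Ccnd1, which encodes cyclin D1 and is also a hedgehog target, was at 630.7 ± 7.94 CPM in DS38 and 689.4 ± 6.94 CPM in DMSO. Egr1, Fos, Myc, Phlda1, Epha2 and Epha4 did not pass.

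Of 17 tested ETS factors and regulators of the ETV proteins, 1 rose and 2 fell, with a median of -0.04. Elk4, a partner of serum response factor, fell, with 110.6, 105.7 and 108.0 CPM in DS38 against 129.7, 125.5 and 120.8 CPM in DMSO (edgeR adjusted p = 4.098e-05). Elk3, of the same subfamily, rose, at 13.8 ± 0.839 CPM in DS38 and 11.2 ± 0.229 CPM in DMSO (SD, n = 3 each; edgeR adjusted p = 0.001098). Etv6 fell by 0.09 ± 0.033, but 10 of 17 alternatives ended its call, among them leaving out any 1 library other than DMSO replicate 3. In this list 1 gene was lower without DMSO replicate 1 or 2 or any DS38 replicate. Cic, the repressor of the ETV genes, was at 160.2 ± 4.53 CPM in DS38 and 169.5 ± 3.27 CPM in DMSO. Every DS38 library lay below every DMSO library, as in 17.9% of all tested genes. Cic narrowly missed the threshold (edgeR adjusted p = 0.05047). Cop1, a ubiquitin ligase subunit that targets the ETV proteins, had the highest CPM of the list without correction for length. Its level was 225.6 ± 1.14 CPM in DS38 and 216.7 ± 3.82 CPM in DMSO (log2 fold change 0.057, edgeR adjusted p = 0.1398). Cop1 passed as higher with library size alone (0.092; edgeR adjusted p = 0.01105), the length correction (0.17; 2.199e-05) and the GC correction (0.126; 0.001616).

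**Figure D5:**
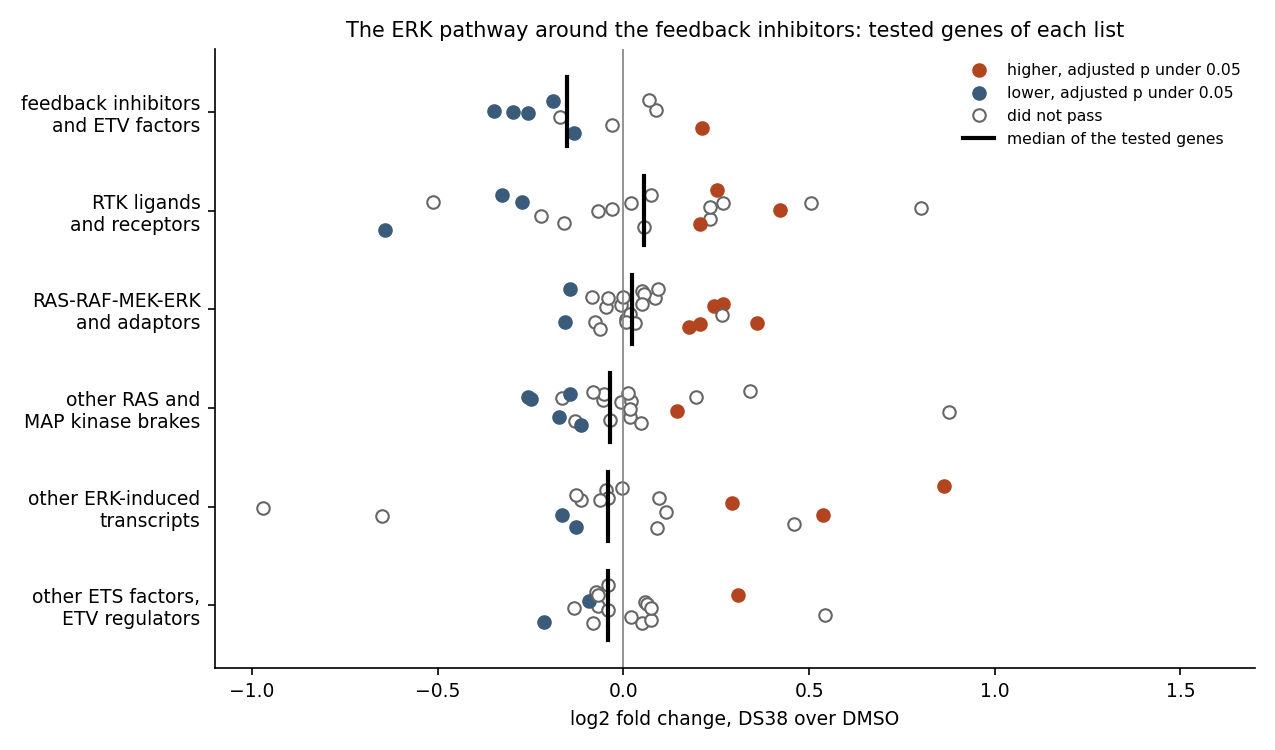
Log2 fold change, DS38 over DMSO, of every tested gene of the 10 (top row) and of the 5 other lists of the ERK pathway. Filled points passed the test and open points did not, black bars are medians, and points are spread vertically for legibility. The median is -0.15 in the top row and between -0.04 and 0.06 in the others.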

How the data were processed

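A table of raw read counts by Ensembl gene, with gene lengths, was deposited for the 6 libraries. The tools named, per the submitters' processing notes, are edgeR, R 4.1.0, featureCounts, STAR 2.7.9a and Subread 2.0.3; GRCm39 and GRCh38.p13 are the builds, and roles and order are not stated. Neither strand setting nor multi-mapping is given in these sources. Symbols were matched for 52083 rows. Totals were 38840296 to 84044428 counts, and intervals cover the spread between libraries.

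Genes were filtered with filterByExpr (minimum count 10, minimum total 15) with TMM scaling. The contrast DS38 over DMSO was tested (edgeR 4.0.16, quasi-likelihood, two-sided, no covariate), with p-values adjusted over all 17679 genes, at 0.05 (R 4.3.3, Python 3.11.15, matplotlib 3.10.9). Alternatives used DESeq2 1.42.0, limma 3.58.1 (voom), other scalings and filters, the replicate block, robust dispersion, thinning and single libraries left out. Corrections for length and for GC (longest GENCODE M21 transcript) and the abundance-limited background were chosen after seeing the data. The fits were tested on simulated data. The simulated counts had the same dispersion for every gene in both groups and no trend with length or GC, a simpler setting than these data. Members and lists were chosen with earlier results of these data known.

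Genes named beyond the 10 followed a rule. From each list it took the 3 called genes of smallest adjusted p in each direction and the gene of highest mean CPM. From each marker list it took the 2 of highest mean CPM. It also took the 3 nearest profiles of 2 members. A few genes that the rule names are not reported here. Spred2, Spred3, Rasal2, Cic and those said not to pass were added after their values were seen. Within-group pairs differed by more than counting noise (chi-square over degrees of freedom 2.91 to 3.56 in DS38 and 8.57 to 9.61 in DMSO, whose libraries thus varied more).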

Additional observations from a re-analysis of the deposited data

How the results depend on the processing

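The 6 calls among the 10 genes held under all 17 alternatives, and the number lower was 5 or, with the length correction, 6. Of the 170 values of the 10 genes, 167 kept direction and side of the threshold. Etv4, not called, turned to 0.004 with library size alone and 0.048 without DMSO replicate 2 (single libraries left out, -0.088 to 0.048). Other genes that were not called also changed sign: Dab2ip without DMSO replicate 2 (-0.003) and with the GC correction (-0.048); Olig2 after thinning (0.112) and without DMSO replicate 1 (0.180; range -0.172 to 0.180); and Pecam1 without DMSO replicate 3 (-0.072; range -0.072 to 0.776). With library size alone, the median of all genes moved by 0.035 and 68.1% of calls were higher, against 52.4%.

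Counts in the other lists were less stable, and the causes were not tested. Receptors and ligands had 6 higher with library size alone, against 3. The cascade had 3 higher with DESeq2 or thinning and 10 with library size alone, against 5, and 2 to 7 with single libraries left out; 4 were lower with the length or GC correction, against 2, and 2 to 4 with single libraries left out. The other brakes had 2 higher without a filter on low counts, against 1, and 0 to 2 with single libraries left out. The ETS list had 4, 3 and 2 higher with library size alone, the length and the GC correction, against 1. Of it, 1 was lower with library size alone, no filter, the replicate block or thinning, 4 with the filter of 1 CPM in 3 libraries or the length correction and 5 with the GC correction, against 2, and 1 to 3 with single libraries left out.

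Deviations of same-numbered libraries correlated at 0.035, -0.011 and -0.027, and those of differently numbered libraries at -0.044 to 0.056. No pairing by replicate number was thus seen in the values, which cannot show whether libraries were handled together. With the replicate block, 1 of the 10 genes was higher and 5 were lower, as without it, and 2108 genes in all were higher and 1902 lower. Depth limits Etv4 most, with 116 to 252 counts per library.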
